A study of Mus musculus with 24 samples.

Results

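Undifferentiated mouse embryonic stem cells (ESCs) that had been edited in all 3 Tet genes (TKO, Tet1-/-;Tet2-/-;Tet3-/-) were compared with ESCs edited in Tet1 and Tet2 alone (DKO, Tet1-/-;Tet2-/-). The comparison therefore asked what the added edit of Tet3 went with before differentiation began, at day 0 (D0). The members are 4 of the 24 libraries of the series: 2 TKO libraries, TKO_1 and TKO_2, and 2 DKO libraries, DKO_1 and DKO_2. They were taken by genotype and day and not by a measured value, though earlier results of these data were known.

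All lines came from 1 parental ESC clone of 129/SVj origin that carries an Oct4:IRES:eGFP reporter, and guide RNAs with Cas9 introduced the edits. The cells grew without feeders on gelatin, and the medium at D0 contained leukemia inhibitory factor (LIF), a cytokine that keeps ESCs undifferentiated. Each library is 1 clone, so a difference between genotypes cannot be told apart from a difference that the clones of a genotype happened to share. Wild-type (WT, 3 clones), Tet1-/- (3 clones) and Tet2-/- (2 clones) libraries of D0 complete the 12 libraries of that day, and TKO and DKO clones of the same names (1 clone number lacks its decimal point in the D6 labels) were sequenced after 6 days without LIF (D6). Poly(A)-selected RNA gave about 21729300 to 26348400 gene counts in each of the 4 libraries and up to about 37290200 in the other D0 libraries.

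TET enzymes oxidise the methyl group of methylcytosine in DNA, which opens a route to its removal. Tet1 and Tet2 are the main forms in ESCs, whereas Tet3 is best known from the oocyte and the early embryo. DNA methylation keeps a set of germline genes silent in other cells. A small and changing share of ESCs switches on genes of the cleavage-stage embryo, among them the Zscan4 family, and such cells are called 2-cell-like.

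The edits were designed against coding sequence, and the sites are shown because they define the compared genotypes. In the mm9 build (NCBIM37) the Tet3 site lies at chr6:83329882-83329910 on the minus strand, inside coding exon 3 of 9 of the longest annotated coding transcript. The site is printed first with its PAM, the 3 bases Cas9 requires beside the guide, in capitals. It is then printed for each TKO clone of the genotyping list, with the deleted bases in capitals.
Tet3 site: ggcaaggaggggaagagttctcgAGGctg
TKO clone 1: ggcaaggaggggaagagtTCtcgaggctg
TKO clone 2: ggcaaggagGGGAAGAGTTCTCGAGgctg
The deletions span 2 and 16 bases, and neither is a multiple of 3. The list gives 1 Tet3 allele for each TKO clone, and it numbers the clones and was not matched to the library names TKO_1 and TKO_2, so an allele cannot be tied to a library here.

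The shared Tet1 edit differed in kind between clones. The Tet1 site (chr10:62296283-62296317, minus strand) overlaps coding exon 4 of 12 with 32 of its 35 bases. Its unedited sequence, with the PAM in capitals, is followed by the Tet1 alleles of TKO clone 1 and TKO clone 2. Deleted bases are in capitals, as the genotyping list aligns them.
Tet1 site: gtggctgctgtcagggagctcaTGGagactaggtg
TKO clone 1, allele 1: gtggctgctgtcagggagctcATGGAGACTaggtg
TKO clone 1, allele 2: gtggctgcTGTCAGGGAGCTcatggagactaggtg
TKO clone 2, allele 1: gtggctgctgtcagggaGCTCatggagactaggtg
TKO clone 2, allele 2: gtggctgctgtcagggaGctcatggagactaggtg
Both alleles of TKO clone 1 lost a multiple of 3 bases, 9 and 12, while those of TKO clone 2 lost 4 and 1. The list aligns the loss of 9 bases with 4 substituted bases, and the capitals follow that alignment. The resulting allele is the same as the site without gggagctca and with no base changed. Each DKO clone carried 1 Tet1 allele with such a length, of 12 bases in DKO clone 1 and of 9 bases in DKO clone 2. At the Tet2 site (chr3:133148610-133148641, minus strand, inside the first of 10 coding exons), 1 allele of TKO clone 1 lost 18 bases. Within the printed site, no other listed Tet2 allele of the TKO and DKO clones had a net length change that is a multiple of 3. A Tet2 loss of 13 bases in DKO clone 1 and a Tet1 loss of 35 bases in DKO clone 2 reach the end of the printed site. The full length of these 2 losses is not known.

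The RNA of the edited genes was read next, since small deletions need not lower it. Levels are given in CPM, the count of a gene scaled to its library's TMM-adjusted total, and were compared within a gene only. Tet3 was measured at 5.88 and 5.75 CPM in DKO_1 and DKO_2, and at 4.197 and 2.69 CPM in TKO_1 and TKO_2. Both TKO libraries lay below all 10 other D0 libraries. The fitted log2 fold change of TKO over DKO was -0.76 (SE 0.249), which did not pass the test (edgeR's quasi-likelihood test, Benjamini-Hochberg adjusted p = 0.132). With each library given its own offset for chromosome 6, where Tet3 lies and which stood high in TKO_2, the value was -1.02 (adjusted p = 0.102). Tet1 separated the TKO clones from each other, not the genotypes: it stood at 538 CPM in TKO_1 and at 39.5 CPM in TKO_2, around the 350 and 217 CPM of the DKO clones. Tet2 was likewise lower in TKO_2, at 7.72 CPM, than in TKO_1, at 40.3 CPM, with 52.3 and 21.0 CPM in DKO. Neither gene differed between the genotypes beyond that spread (edgeR, log2 fold change 0.03 with adjusted p = 0.991 for Tet1, and -0.61 with adjusted p = 0.577 for Tet2).

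**Figure D1:**
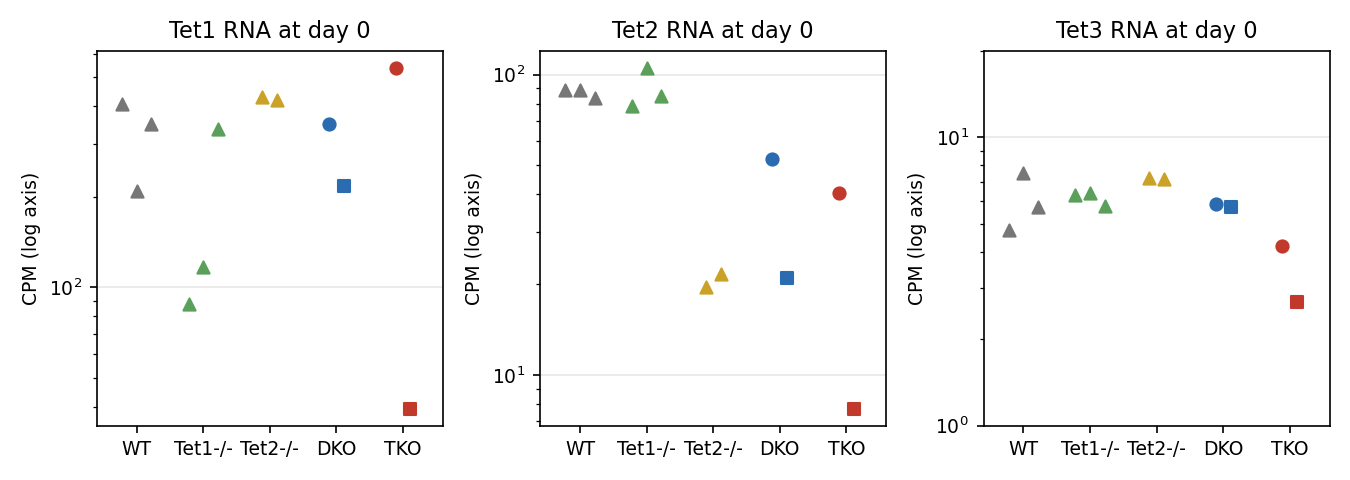
Tet1, Tet2 and Tet3 RNA in CPM (log axes) in each of the 12 D0 libraries by genotype; each symbol is 1 clone, with circles for DKO_1 and TKO_1 and squares for DKO_2 and TKO_2. Tet3 is lowest in the 2 TKO libraries (4.197 and 2.69 CPM), while Tet1 differs most between the TKO clones (538 and 39.5 CPM).

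The labelled cell type was checked against its markers. Pou5f1, which encodes the pluripotency factor Oct4, stood at 693 and 677 CPM in DKO and at 710 and 564 CPM in TKO. Nanog, a further core factor, stood at 656 and 610 CPM in DKO and at 513 and 516 CPM in TKO (log2 fold change -0.30, SE 0.0999, edgeR adjusted p = 0.136). No member of the core list (9 tested) or the naive pluripotency list (18 tested) was called. Some markers of other cells were not equal between the TKO clones: Cubn, an endoderm receptor, stood at 9.48 CPM in TKO_2 and at no more than 0.709 CPM in the other 3 libraries. Gata6, an endoderm transcription factor, followed it with 4.06 CPM in TKO_2 and at most 0.834 CPM in the others. Of the endoderm list 16 members were tested and 0 called. A fitted difference above 0 was found for 12 of them, with a median log2 fold change of 0.54, against 0.03 over all tested genes. Both TKO libraries lay above both DKO libraries in 3 (18.8%, against 20.5% of all tested genes) and below them in 2 (12.5%, against 20%). The summed level of the list was 707 to 753 CPM in DKO and 685 to 794 CPM in TKO, and the defining genes Afp and Ttr had 0 counts in all 4 libraries. Matrix genes carried most of that sum, led by Sparc at 334 and 384 CPM in DKO and 218 and 342 CPM in TKO. The fibroblast list was summed at 366 to 428 CPM in DKO and 239 to 412 CPM in TKO, most of it Vim, an intermediate filament (327 and 390 CPM in DKO, 369 and 210 CPM in TKO), with Dcn, Lum and Fap at 0. In such bulk libraries, fewer cells of a type and less RNA in each cell cannot be told apart.

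Across 14456 tested genes, calls of lower RNA in TKO than in DKO outnumbered calls of higher RNA. A gene was called when its adjusted p in edgeR was below 0.05 and it differed by more than 2-fold. By this rule 98 genes were lower in TKO (0.678% of the genes tested) and 34 were higher (0.235%), so that 74.2% of the calls were lower. The median fitted difference over all tested genes was 0.03 on the log2 scale. The called lower genes had a median log2 fold change of -1.79 (3.46-fold), and the called higher genes of 1.30 (2.46-fold). Without the fold minimum, 155 genes were lower and 109 higher, and 2825 genes had an unadjusted p under 0.05.

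Every one of the 132 called genes had both TKO libraries beyond both DKO libraries. That order by itself was common: in 20.5% of all tested genes both TKO libraries lay above both DKO libraries, and in 20% both lay below. For 74 of the 98 lower genes, both TKO libraries also lay below all 10 other D0 libraries, and for 29 of the 34 higher genes both lay above them. The share of all tested genes in that wider order was not counted, so these 2 counts describe the called genes only. In 66 lower and 21 higher genes each TKO clone alone differed from the DKO mean by more than 2-fold.

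The calls rest on a spread shared by all 5 genotypes, and the TKO clones differed from each other far more than the DKO clones did. Of 12424 genes with a mean of at least 1 CPM, 1028 differed by more than 2-fold between the TKO clones and 27 between the DKO clones, and the biological coefficient of variation estimated for each genotype was 0.302 (TKO) and 0.0756 (DKO). A fit of the 4 libraries alone called 0 genes in edgeR, with 1102 at an unadjusted p under 0.05, and limma's voom with a spread for each genotype called 1 gene in each direction, Epha4 (higher) and D1Pas1 (lower). With DKO_1 left out, 22 lower and 2 higher genes were called, and with DKO_2 left out 37 and 4. With TKO_1 left out 335 lower and 274 higher genes were called, and with TKO_2 left out 430 and 451, so that lower calls no longer outnumbered higher calls. Each of these 4 fits kept 1 clone of TKO or of DKO, so that genotype gave no spread of its own. With a TKO clone left out, the wide spread between the TKO clones did not enter the test. These counts are a description and no test of how stable the calls are.

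**Figure D2:**
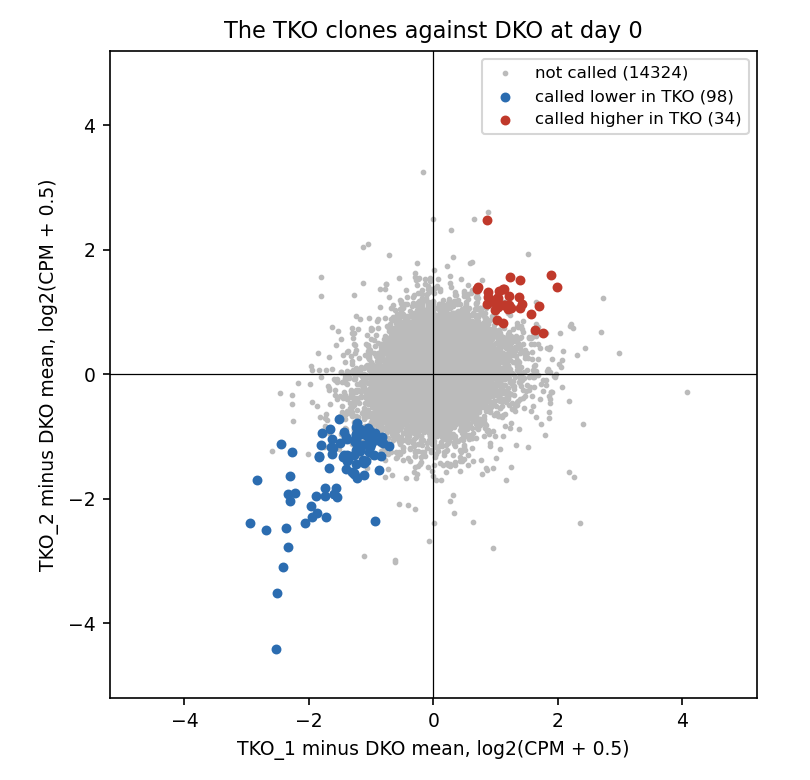
Each tested gene by its difference from the DKO mean in TKO_1 (x axis) and in TKO_2 (y axis), both as log2(CPM + 0.5) at D0; grey points are the 14324 genes not called, blue the 98 called lower and red the 34 called higher. Called genes lie away from 0 in both clones, and grey points spread to both sides of 0 in each clone.

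The genes most different between the TKO clones, among those with a mean of at least 10 CPM in TKO, are given as a description. Besides Tet1, the genes highest in TKO_1 over TKO_2 were Plce1 (48.6 and 1.33 CPM), Grin1 (59.9 and 3.51 CPM) with its antisense neighbour Grin1os (23.7 and 1.29 CPM), Bnip3 (29.9 and 2.81 CPM) and Dnah8 (56.9 and 7.33 CPM). The counting strand is not known, so reads of Grin1 and Grin1os cannot be told apart. Highest in TKO_2 over TKO_1 were Magohb (25.3 and 1.98 CPM), Pla2g1b (41.9 and 4.55 CPM), Nup62cl (75.2 and 13.9 CPM), Sepp1 (21.9 and 4.32 CPM), Ccnd2 (17.4 and 3.52 CPM) and Tex19.1 (160 and 34.5 CPM). In 10 of these 11 genes the TKO and DKO values overlapped, and in Ccnd2 both TKO libraries lay below both DKO libraries.

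Germline genes were among those that fell. Of the list of germline genes held silent by DNA methylation, 34 were tested, 4 were called lower (0.678% over all tested genes) and 0 higher, and 28 had a fitted difference below 0. Their median log2 fold change was -0.60, against 0.03 over all tested genes, and in 18 of 34 both TKO libraries lay below both DKO libraries, as in 20% of all tested genes. The summed level of the list was 673 to 698 CPM in DKO and 205 to 407 CPM in TKO, beside 508 to 686 CPM in WT, 686 to 744 CPM in Tet1-/- and 272 to 274 CPM in Tet2-/-. Few genes carried much of that fall: the TKO minus DKO means were -130 CPM for Rpl10l, -84.5 CPM for Rpl39l and -52.3 CPM for D1Pas1. The sum also holds Tex19.1, which was higher in TKO_2 than in TKO_1, as given above. The fit of the 4 libraries alone called 0 of them, and voom with a spread for each genotype called 1. At D6 the median over 33 tested members was 0.28 and 0 were called.

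The 4 called germline genes were D1Pas1, Rpl39l, Rpl10l and Dazl. D1Pas1 encodes a testis-expressed RNA helicase and stood at 66.4 and 52.97 CPM in DKO and at 9.98 and 4.76 CPM in TKO. The TKO libraries were the lowest of the 12, and the log2 fold change was -3.02 (SE 0.268, 8.10-fold, edgeR adjusted p = 0.000349). Rpl39l, a testis-enriched copy of a ribosomal protein gene, fell from 107 and 81.8 CPM to 15.8 and 3.901 CPM (log2 fold change -3.26, SE 0.425, adjusted p = 0.0037). Rpl10l, a copy of a further ribosomal protein gene, fell from 176 and 157 CPM to 23.0 and 50.8 CPM (log2 fold change -2.17, SE 0.286, adjusted p = 0.0037). Dazl, an RNA-binding protein of germ cells, stood at 15.3 and 21.8 CPM in DKO and at 6.37 and 6.98 CPM in TKO (log2 fold change -1.47, SE 0.329, adjusted p = 0.0452), above the 3.54 CPM mean of Tet2-/-. The size of the fall depended on the clone. The log2 fold change of Rpl39l was -4.60 without TKO_1 and -2.57 without TKO_2, and that of D1Pas1 -3.65 and -2.58. For Rpl10l it was -1.71 without TKO_1 and -2.86 without TKO_2. That of Dazl, whose adjusted p lay close to the limit for a call, ranged from -1.71 to -1.20 with 1 library left out. D1Pas1, Rpl39l and Rpl10l resemble widely expressed genes on the X chromosome, so their reads could be split in mapping. Those genes were not called: Ddx3x stood at 1148 and 1250 CPM in DKO and 1045 and 1131 CPM in TKO, Rpl39 at 230 and 215 CPM in DKO and 254 and 155 CPM in TKO, and Rpl10 at 651 and 588 CPM in DKO and 672 and 627 CPM in TKO.

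Their promoters are shown because CG dinucleotides are where DNA methylation acts. Each is the RefSeq stretch of 300 bases around the start of the gene, most of it upstream (GRCm38.p6), with every CG in capitals.
D1Pas1: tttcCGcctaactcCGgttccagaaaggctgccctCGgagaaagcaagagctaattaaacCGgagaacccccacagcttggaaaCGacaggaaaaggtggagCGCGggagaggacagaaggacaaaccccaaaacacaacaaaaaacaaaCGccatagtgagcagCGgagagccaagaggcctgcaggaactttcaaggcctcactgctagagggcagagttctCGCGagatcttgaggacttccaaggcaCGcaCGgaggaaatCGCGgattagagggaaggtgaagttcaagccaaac
Rpl39l: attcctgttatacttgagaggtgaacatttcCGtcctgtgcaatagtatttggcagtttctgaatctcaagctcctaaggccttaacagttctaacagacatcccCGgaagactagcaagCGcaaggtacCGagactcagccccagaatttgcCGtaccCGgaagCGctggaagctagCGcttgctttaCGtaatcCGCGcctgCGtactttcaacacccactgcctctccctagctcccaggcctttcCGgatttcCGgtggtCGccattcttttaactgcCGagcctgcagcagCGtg
Rpl10l: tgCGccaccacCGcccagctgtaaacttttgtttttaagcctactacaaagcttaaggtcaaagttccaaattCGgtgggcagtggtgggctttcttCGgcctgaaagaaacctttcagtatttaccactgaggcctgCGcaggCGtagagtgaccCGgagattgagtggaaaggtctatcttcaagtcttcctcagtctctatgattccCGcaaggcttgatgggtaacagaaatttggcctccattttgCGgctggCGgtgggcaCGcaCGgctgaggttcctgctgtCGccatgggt
Dazl: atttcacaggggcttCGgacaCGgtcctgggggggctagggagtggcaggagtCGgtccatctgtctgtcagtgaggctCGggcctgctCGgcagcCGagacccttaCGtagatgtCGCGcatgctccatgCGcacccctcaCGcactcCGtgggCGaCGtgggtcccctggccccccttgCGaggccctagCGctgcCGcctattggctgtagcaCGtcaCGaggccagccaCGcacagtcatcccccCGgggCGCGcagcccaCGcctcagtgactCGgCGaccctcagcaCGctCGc
These promoters hold 15, 17, 13 and 28 CG dinucleotides, beside a median of 20 over all tested genes with a promoter entry and of 18 over those of the germline list. The sequence CACGTG, which reads the same on both strands, was found in none of the 4 and in 15 of the 32 germline genes of the list with a promoter (46.9%), against 10.2% of the 11334 tested genes that had one. A comparison of CG content over the called lower genes is void, because 66 of 98 (67.3%) had an entry, as had 78.4% of all tested genes.

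Further genes known from germ cells were called lower outside that list. They were chosen after their values were seen, so no count is drawn from them. Rnf17, a tudor-domain protein of male germ cells, fell from 142 and 132 CPM to 62.5 and 52.0 CPM (log2 fold change -1.26, SE 0.147, edgeR adjusted p = 0.00281). Hsf2bp, which acts in meiotic recombination, fell from 61.6 and 70.0 CPM to 31.0 and 32.8 CPM (log2 fold change -1.04, SE 0.127, adjusted p = 0.00309). Sohlh2, a germ cell transcription factor, was at 36.1 and 39.9 CPM in DKO and at 19.6 and 7.02 CPM in TKO, and its WT mean was higher than either at 111 CPM ± 16.7 (SD, n = 3). The log2 fold change of Sohlh2, -1.52, became -2.44 without TKO_1 and -0.96 without TKO_2. Psma8, a testis proteasome subunit, and Papolb, a testis poly(A) polymerase, had log2 fold changes of -1.05 and -1.80. Piwil2, of the piRNA pathway, is on the list and passed the test at less than 2-fold (log2 fold change -0.82, adjusted p = 0.0366).

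Of the lists examined, the 2-cell-like genes had the most negative median, with most members at a low level, though no test compared the lists. Of 24 list members present in the data, 16 passed the count filter and were tested, and 12 of them were called lower (0.678% over all tested genes). All 16 lay below both DKO libraries in both TKO libraries (20% over all). The median log2 fold change was -3.51, or -3.27 with genes at 0 counts in TKO set to their bound. A weakly expressed gene could pass the filter through DKO, so these shares are no test of the list. Pramef25, for example, had 0.542 and 0.788 CPM in DKO, 0 in TKO and at most 0.574 CPM in any other D0 library. The 5 Zscan4 lines, which mark the 2-cell-like state, summed to 13.3 and 7.55 CPM in DKO_1 and DKO_2 and to 0.554 and 0.312 CPM in TKO_1 and TKO_2, from 14 and 8 counts. The 5 Usp17l lines, a family of deubiquitinases, summed to 9.59 and 6.63 CPM in DKO and to 0.950 and 0.546 CPM in TKO. In both families DKO stood above the WT libraries, which reached 6.02 CPM for Zscan4 and 3.97 CPM for Usp17l, and the Tet2-/- libraries were low as well, at 0.722 and 1.01 CPM for Zscan4. The summed level of the whole list, 545 to 546 CPM in DKO and 345 to 461 CPM in TKO, is mostly Eif1a, which was not called.

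Single members show the size of the counts. Zscan4d was at 5.59 and 2.97 CPM in DKO and at 0.356 and 0.0390 CPM in TKO (log2 fold change -4.41, SE 0.588, edgeR adjusted p = 0.0037), from 198 counts against 10, a ratio of 22.1 with a 95% counting interval of 11.8 to 46.8. Zscan4a gave 139 counts in DKO and 4 in TKO, a ratio of 38.8 with an interval of 14.8 to 144. The log2 fold change of Zscan4d was -6.62 without TKO_1 and -3.57 without TKO_2, and that of Zscan4a was -6.10 without TKO_2. Zscan4b, Usp17lc and Pramef25 had 0 counts in both TKO libraries and were at least 6.68-fold, 6.88-fold and 5.64-fold lower, against a floor of 3 counts in each library. The other called members, Zscan4c, Usp17la, Usp17lb, Usp17le, Gm5662, Tcstv3 and Tmem92, had log2 fold changes between -4.04 and -3.19. That of Tmem92 was -6.85 without TKO_1 and -2.72 without TKO_2, and that of Usp17le -3.83 without TKO_1. Those of Gm5662 and Tcstv3 were -3.93 and -4.19 without TKO_2, and that of Zscan4c was -3.25 without DKO_1. With so few counts in TKO, such values do not fix the size of a fall. These genes lie in families of near-identical copies, so the split of reads within a family is uncertain. Counting intervals and floors cover counting error only. The Dppa3 RNA, of a maternal factor also seen in naive ESCs, overlapped between the genotypes: it stood at 0.959 and 2.73 CPM in DKO and at 0.554 and 8.82 CPM in TKO.

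The number of calls in this list varied with the fit. DESeq2 called 7 of the 16 lower, the fit of the 4 libraries alone and voom with a spread for each genotype called 0, and 4 were called without DKO_1. At D6 the median over 13 tested members was -0.58 and 0 were called. The promoter of Zscan4d is shown as 1 example from the list, with its 3 CG dinucleotides in capitals.
Zscan4d: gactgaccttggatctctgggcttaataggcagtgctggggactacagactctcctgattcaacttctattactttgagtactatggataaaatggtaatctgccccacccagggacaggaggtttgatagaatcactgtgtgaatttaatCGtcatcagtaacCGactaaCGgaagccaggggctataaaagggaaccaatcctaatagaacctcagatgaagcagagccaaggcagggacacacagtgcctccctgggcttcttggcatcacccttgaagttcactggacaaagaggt
Of the 16 members, 8 had a RefSeq promoter, so a comparison over this list is void as well.

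**Figure D3:**
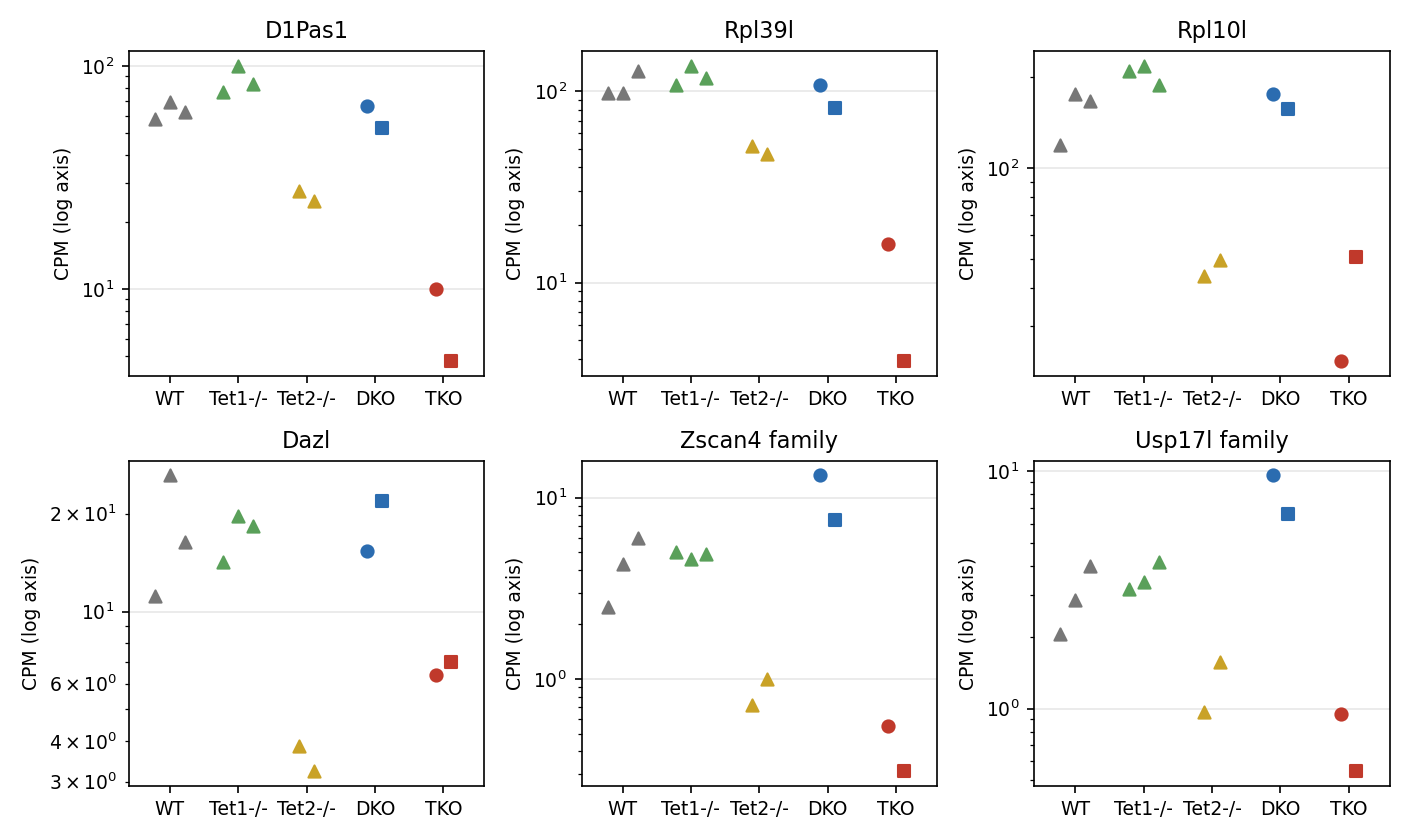
D1Pas1, Rpl39l, Rpl10l and Dazl, and the summed Zscan4 and Usp17l lines, in CPM on log axes in each of the 12 D0 libraries by genotype; each symbol is 1 clone, with circles for DKO_1 and TKO_1 and squares for DKO_2 and TKO_2. Both TKO libraries lie below both DKO libraries in all 6 panels, and the Tet2-/- libraries lie below DKO as well.

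Other lower genes of large size came from no list. Spink3, a serine protease inhibitor, stood at 5.38 and 5.005 CPM in DKO and at 0.238 and 0.585 CPM in TKO, where both libraries were the lowest of the 12 (log2 fold change -3.64, SE 0.492, edgeR adjusted p = 0.0037). Nckap5 stood at 3.00 and 2.18 CPM in DKO and at 0.158 and 0.312 CPM in TKO (log2 fold change -3.44, SE 0.454, adjusted p = 0.0037). The predicted genes Gm2016, Gm8300 and Gm5039 and the transcript 4930591A17Rik fell by between 3.00 and 4.36 on the log2 scale, each from a DKO mean below 5 CPM. Without TKO_2 the log2 fold change of Spink3 was -4.42, and without TKO_1 that of 4930591A17Rik was -4.13. Of the 98 called lower genes, 52 had a DKO mean below 5 CPM. Chosen after their values were seen among the more abundant ones, Manba, a lysosomal mannosidase, fell from 254 and 277 CPM to 130 and 111 CPM (log2 fold change -1.14, SE 0.141, adjusted p = 0.00337). Zfp229, a zinc finger gene, fell from 61.6 and 74.98 CPM to 22.3 and 17.5 CPM (log2 fold change -1.78, SE 0.177, adjusted p = 0.000773).

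The level in WT places the called genes on a common scale. The median log2 difference from WT over the 98 genes was -1.63 in TKO, 0.24 in DKO and -0.41 in Tet2-/-. The TKO mean lay below the WT mean in all 98, and the DKO mean lay above it in 71. For the 34 higher genes the medians were 0.95 in TKO and -0.30 in DKO, with the TKO mean above WT in all 34 and the DKO mean below WT in 29. These comparisons share the WT libraries, and the genes were selected on TKO minus DKO, so the medians describe the genes and test nothing.

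Among the higher genes, Epha4 had the smallest adjusted p. Epha4, an ephrin receptor tyrosine kinase, was at 59.7 and 61.3 CPM in DKO and at 226 and 184 CPM in TKO. Both TKO libraries were the highest of the 12, against a WT mean of 49.1 CPM ± 8.84 (SD, n = 3), and the log2 fold change was 1.76 (SE 0.163, 3.39-fold, edgeR adjusted p = 0.000421). The value for Epha4 ranged from 1.60 to 1.90 with 1 library left out. H2-K1, a heavy chain of the major histocompatibility complex, rose from 14.5 and 15.1 CPM to 35.3 and 44.8 CPM (log2 fold change 1.44, SE 0.199, adjusted p = 0.00391). Sox11, a transcription factor of neural progenitors, rose from 7.84 and 7.69 CPM to 21.2 and 16.8 CPM (log2 fold change 1.29, SE 0.185, adjusted p = 0.00519), as the 1 called gene among 10 tested neuroectoderm genes (0.235% called higher over all tested genes).

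Further higher genes were mostly weakly expressed. Among those with a mean of at least 1 CPM over the 12 libraries, the largest fold changes were those of Tmem179 (2.199) and 2810408A11Rik (2.12) on the log2 scale, with DKO levels of 1.63 and 1.07 CPM and of 1.08 and 1.02 CPM. Tmem179 was carried mainly by TKO_2, at 9.63 CPM against 2.81 CPM in TKO_1, and its log2 fold change was 2.82 without TKO_1 and 1.05 without TKO_2. Frmd4b, Fam19a4, Pde4c (a cyclic AMP phosphodiesterase), Plxdc1, Rap1gap2 (an activator of Rap GTPase turnover), Coro1a (an actin-binding protein of blood cells) and Bcl11b (a transcription factor of T cell development) had log2 fold changes from 1.38 to 1.69. Chosen after their values were seen among the more abundant ones, Trh, the thyrotropin-releasing hormone precursor, rose from 152 and 114 CPM to 291 and 341 CPM (log2 fold change 1.25, SE 0.170, edgeR adjusted p = 0.0037). Smo, the Hedgehog signal transducer, rose from 41.0 and 35.3 CPM to 89.0 and 82.5 CPM (log2 fold change 1.17, SE 0.173, adjusted p = 0.0058).

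Many higher calls lay on chromosomes that were shifted as a whole. Of 32 higher genes with a known chromosome, 20 lie on chromosomes 6, 11 and 12 (62.5%), against 16.6% of the tested genes with a known chromosome and 9 of 82 lower genes (10.98%). In TKO_2 the median gene of these chromosomes was raised, relative to all autosomes and to the median D0 library, by 0.42 on chromosome 6, by 0.39 on chromosome 11 and by 0.39 on chromosome 12 on the log2 scale. In TKO_1 the same 3 values were 0.06, -0.04 and -0.03, while chromosome 19 was raised by 0.38, against -0.03 in TKO_2. Chromosome 8 was raised in both TKO clones, by 0.16 and 0.12, and in both Tet2-/- clones, by 0.17 and 0.21, with 0.05 and -0.08 in DKO, and stood at -0.24 in 1 Tet1-/- clone and at -0.16 in 1 WT clone. Chromosome 6 was also raised in both Tet2-/- clones, by 0.15 and 0.18. The DKO clones showed 1 shift above 0.1, of 0.13 on chromosome 11 in DKO_2. The part of these shifts in the level of any single gene was not tested beyond the offsets given next.

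The part of these shifts in the calls was measured by giving each library its own offset for each chromosome, an alternative chosen after seeing the data. It called 24 genes higher, 19 of them among the 34, and 93 lower, 89 of them among the 98. Epha4, H2-K1, Coro1a, Sox11, Rap1gap2, Fam19a4, Tmem179 and 2810408A11Rik were called with the offsets. Frmd4b, Plxdc1, Pde4c, Bcl11b, Trh, Smo and Ldhb were not, with log2 fold changes of 1.42, 1.44, 1.51, 1.21, 0.94, 0.88 and 0.75. Of the lower genes named here, Dazl, Ddx58, Psma8 and Sohlh2 lost their call with the offsets, with log2 fold changes of -1.47, -0.99, -0.97 and -1.47. The number of chromosomes in each clone was not measured.

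**Figure D4:**
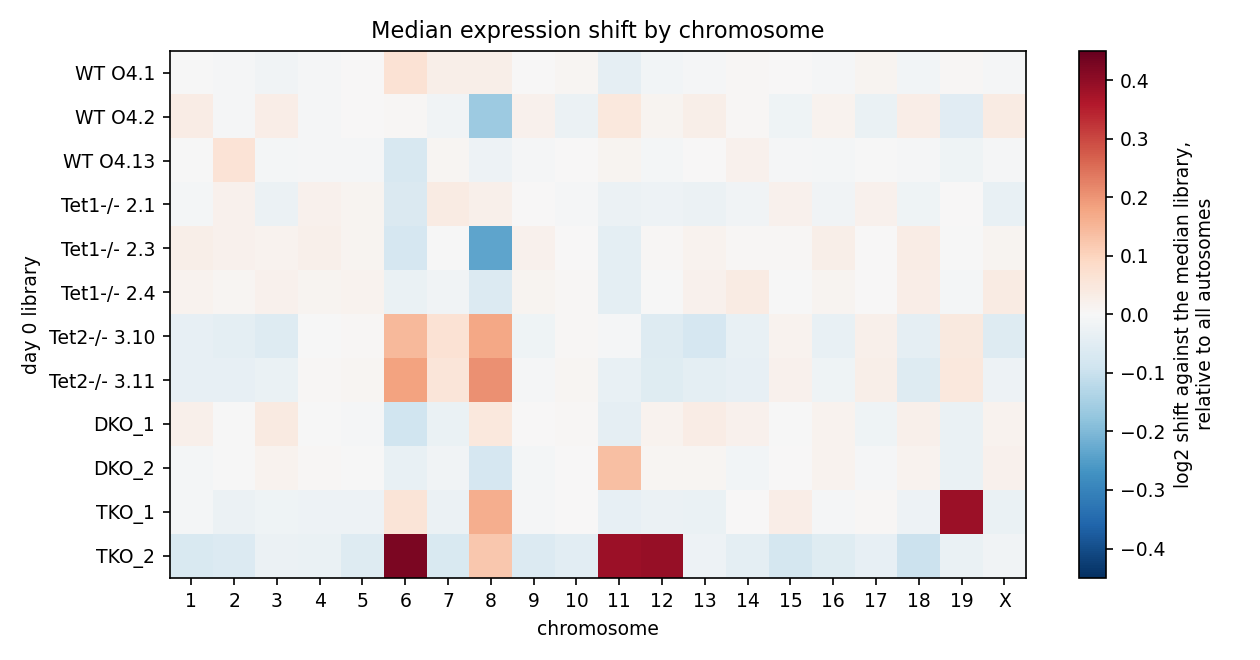
Median shift in expression for each chromosome (columns) in each of the 12 D0 libraries (rows), as log2 against the median library and relative to all autosomes, with red for higher and blue for lower. Chromosomes 6, 11 and 12 are raised in TKO_2 (0.42, 0.39 and 0.39) and chromosome 19 in TKO_1 (0.38).

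Genes that act on DNA methylation itself were next examined. Of 6 tested writers of DNA methylation 0 were called, and 1 passed the test at less than 2-fold. Dnmt3l, a cofactor of the de novo methyltransferases without catalytic activity, stood at 195 and 197 CPM in DKO and at 103 and 116 CPM in TKO. Both TKO libraries were the lowest of the 12, against a WT mean of 241 CPM ± 6.92 (SD, n = 3), and the log2 fold change was -0.84 (SE 0.116, edgeR adjusted p = 0.0039). Dnmt3a, a de novo methyltransferase on chromosome 12, stood at 415 CPM in TKO_2 and between 142 and 152 CPM in the other 3 libraries. Of 19 tested TET partners and base excision repair genes 0 were called, with Gadd45b and Tdg as the largest differences. Tdg, the glycosylase that removes oxidised methylcytosine, overlapped between the genotypes, at 19.7 and 10.1 CPM in DKO and 24.1 and 16.5 CPM in TKO. Gadd45b overlapped as well, at 4.84 and 6.86 CPM in DKO and 10.97 and 6.71 CPM in TKO.

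Most genes of the metabolic lists had differences of one sign, while few passed the test. All 23 tested cholesterol synthesis genes had a fitted difference above 0, with a median log2 fold change of 0.37, and both TKO libraries lay above both DKO libraries in 15 of them (65.2%, against 20.5% of all tested genes). Of these genes 3 passed the test without the fold minimum (109 of 14456 over all genes), and 1 of them was called higher (0.235% over all). The summed level was 1709 to 1757 CPM in DKO, 2076 to 2336 CPM in TKO and 1903 to 2051 CPM in WT. Of 33 tested genes of glycolysis and the response to hypoxia, 32 had a difference above 0, while 46.7% of all tested genes lay below 0, and the median was 0.46. Of them Ldhb alone, a lactate dehydrogenase subunit encoded on chromosome 6, was called. It stood at 206 and 308 CPM in DKO and at 415 and 667 CPM in TKO (log2 fold change 1.08, SE 0.226, edgeR adjusted p = 0.0342). With 1 library left out, the log2 fold change of Ldhb ranged from 0.69 to 1.39. The summed level of that list was 10693 to 10911 CPM in DKO, 11545 CPM in one TKO clone and 16577 CPM in the other, and 14076 to 15067 CPM in WT.

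Of 23 tested targets of p53, 0 were called and 2 passed the test at less than 2-fold. A difference below 0 was fitted for 19 of them, against 46.7% of all tested genes, with a median of -0.26, and both TKO libraries lay below both DKO libraries in 10 (43.5%, against 20% of all tested genes). The clones were not alike: Ccng1, chosen after its values were seen, differed from the DKO mean by -1.02 in TKO_1 and by 0.12 in TKO_2 on the log2(CPM + 0.5) scale. Eda2r, a receptor of the tumour necrosis factor family, stood at 71.0 and 60.0 CPM in DKO and at 34.1 and 41.8 CPM in TKO (log2 fold change -0.79, SE 0.139, edgeR adjusted p = 0.0143). Pmaip1, which encodes the death-promoting protein Noxa, had overlapping groups, at 28.2 and 41.3 CPM in DKO and 10.3 and 29.8 CPM in TKO.

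Signalling and lineage genes held large differences that did not pass the test. Lefty2, an inhibitor of Nodal signalling, stood at 62.4 and 65.9 CPM in DKO and at 185 and 246 CPM in TKO (log2 fold change 1.75, SE 0.418, edgeR adjusted p = 0.0548), with a WT mean of 162 CPM ± 77.7 (SD, n = 3). The WT libraries spanned 73.3 to 220 CPM, so that TKO_1 lay within the WT range, TKO_2 above it and both DKO libraries below it. Klf4, a naive pluripotency factor, had 550 CPM in TKO_1 and 303 CPM in TKO_2, against 251 and 231 CPM in DKO (adjusted p = 0.0695). Foxd3, a repressor of lineage genes in ESCs, had 37.8 and 39.5 CPM in TKO against 64.5 and 58.2 CPM in DKO (adjusted p = 0.0606), and Kdr, a mesodermal receptor, 2.02 and 3.67 CPM against 5.92 and 9.59 CPM (adjusted p = 0.0895). No gene was called among 14 tested Nodal, 15 BMP, 20 WNT, 12 formative, 15 primitive streak and mesoderm, 16 endoderm and 14 trophectoderm genes. Of the primitive streak and mesoderm genes, 8 of 15 had both TKO libraries below both DKO libraries (53.3%, against 20% of all tested genes), with a median log2 fold change of -0.57 and a summed level of 38.7 to 40.6 CPM in DKO and 31.9 to 37.1 CPM in TKO.

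Imprinted, interferon, Polycomb, Rhox and sex chromosome genes gave 3 calls, where 0.678% of all tested genes were called lower and 0.235% higher. H19, an imprinted noncoding RNA, was the 1 call among 35 imprinted genes and fell from 2.84 and 2.502 CPM to 0.831 and 0.663 CPM (log2 fold change -1.83, SE 0.347, edgeR adjusted p = 0.0225). Of 14 interferon response genes, H2-K1 was called higher and Ddx58, the RNA sensor also known as RIG-I, was called lower, from 101 and 110 CPM to 53.1 and 50.9 CPM (log2 fold change -1.02, SE 0.171, adjusted p = 0.0112). Its TKO level was near the WT mean of 62.5 CPM. Of 29 Polycomb genes 0 were called: Phf19, an accessory protein of Polycomb repressive complexes, passed at less than 2-fold (7.13 and 8.90 CPM in DKO, 17.4 and 13.0 CPM in TKO, log2 fold change 0.92, adjusted p = 0.0319). Eed, a core Polycomb subunit, passed in the lower direction at less than 2-fold (456 and 444 CPM in DKO, 292 and 344 CPM in TKO, log2 fold change -0.50, edgeR adjusted p = 0.0485). Of 5 tested Rhox genes 0 were called, and Rhox13 stood at 3.63 and 3.80 CPM in DKO and at 1.47 and 1.52 CPM in TKO (adjusted p = 0.0534). Of 6 X inactivation and 4 Y chromosome genes 0 were called, and the Y-linked Eif2s3y ranged from 6.72 to 24.2 CPM between the DKO clones.

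No gene passed the same test between TKO and DKO after 6 days without LIF. At D6, edgeR called 0 genes higher and 0 lower of 15435 tested (0%), with a smallest adjusted p of 0.593 and 1285 genes at an unadjusted p under 0.05, and DESeq2 called 3 higher and 1 lower. Of the 98 genes called lower at D0, 96 were tested at D6, 62 of them were again lower in TKO, 5 by more than 2-fold, and their median log2 fold change was -0.18. Among all genes tested at D6, 49.1% were lower. Of the 34 genes called higher at D0, 20 were again higher, 3 by more than 2-fold, with a median of 0.17. These genes were selected on their D0 difference, so a smaller one at D6 is no test of a change. With TKO_1 left out, genes were called in both directions at D6, but that fit holds 1 TKO clone and no spread between TKO clones.

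Single genes differed in how far they kept their difference. Epha4 stood at 32.9 and 29.0 CPM in DKO and at 56.4 and 70.2 CPM in TKO at D6, with the groups still apart (log2 fold change 1.03, SE 0.358, edgeR adjusted p = 0.593). Spink3 stood at 2.69 and 1.68 CPM in DKO and at 0.233 and 0.266 CPM in TKO at D6 (log2 fold change -3.12, SE 1.34, adjusted p = 0.593). D1Pas1 overlapped at D6, with 12.6 and 10.9 CPM in DKO, 12.6 CPM in TKO_1 and 2.66 CPM in TKO_2. Tet3 kept its order at D6, with 14.2 and 14.002 CPM in DKO and 8.34 and 9.31 CPM in TKO (log2 fold change -0.68, adjusted p = 0.593).

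The change of the difference between the days was tested directly over all 24 libraries, in a model that did not pair the D0 and D6 libraries of a clone. Of 15639 genes, 5 were called (0.032%): 1700029P11Rik, Cep170b, H2-K1, Lmo7 and Nckap5. Of these, 4 were also called in the D0 comparison, and Lmo7 had passed its test at less than 2-fold (log2 fold change -0.84, edgeR adjusted p = 0.00892). A fit with the clone as a block called more genes, and its count is given in the last section.

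**Figure D5:**
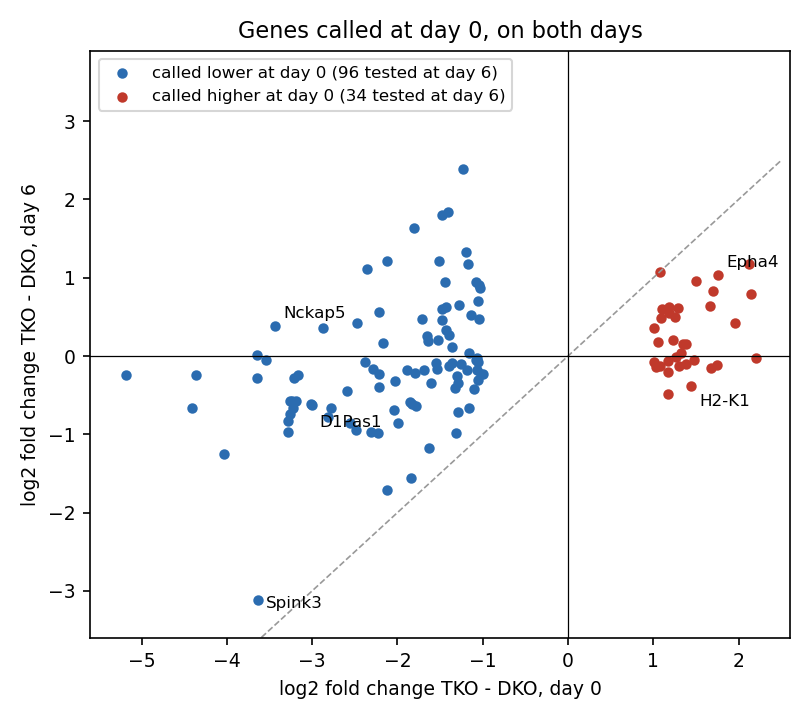
Fitted log2 fold change of TKO over DKO at D0 (x axis) and at D6 (y axis) for the genes called at D0 and tested on both days, blue for the 96 lower and red for the 34 higher genes; the dashed line marks equal values, and genes at 0 counts in TKO at D0 are placed at their bound. Of the lower genes 92 of 96 and of the higher genes 34 of 34 lie nearer to 0 at D6 than at D0, and Spink3 stays near the line.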

How the data were processed

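Paired-end reads of poly(A)-selected RNA were mapped by the authors with STAR 2.5.1 to mm9, and the deposited tables hold raw counts per transcript line under a gene symbol. The sources used here name HTSeq in one place and featureCounts in another, and no strand setting. Where a symbol had several lines its first was kept, and ERCC spike-ins were not used. DESeq2 is named in the submitters' processing notes.

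Counts of the 12 D0 libraries were filtered (filterByExpr, minimum count 10) and scaled by TMM, and a quasi-likelihood model with 1 coefficient for each genotype was fitted in edgeR 4.0.16 (R 4.3.3). TKO minus DKO was tested, with Benjamini-Hochberg adjustment over all tested genes, and a call needed an adjusted p under 0.05 and a log2 fold change beyond 1. CPM values use the TMM library sizes, and single-library differences are of log2(CPM + 0.5). D6 was fitted alike, and a model over 24 libraries tested the change between days. DESeq2 1.42.0 and limma 3.58.1 gave alternatives. The code was tested on simulated data.

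The members and gene lists were chosen with earlier results of these data known. Named genes were Tet1, Tet2 and Tet3, the 12 largest called rises and the 12 largest called falls with a mean of at least 1 CPM over the 12 libraries and TKO and DKO apart, up to 4 called members of each list (or the 2 largest differences where none was called), the 6 genes most different in each direction between the TKO clones (mean of at least 10 CPM in TKO), and 11 tested genes the study discusses, of which 0 were called. Some of these, of small or overlapping differences, are not printed, and 2 others are not reported here. Chromosomes come from GENCODE vM1 (mm9), guides and alleles from the study's supplement, and promoters from RefSeq. Replicates are clones, 2 for each of the TKO and DKO genotypes, so p-values measure the spread between clones.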

Additional observations from a re-analysis of the deposited data

Results flagged for a closer look

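In 5 genes the TKO minus DKO difference changed between D0 and D6 by the interaction test in edgeR over all 24 libraries, which did not pair the libraries of a clone. Values are log2 of the D6 difference minus the D0 difference, with the adjusted p over 15639 genes. Nckap5 changed by 3.83 (SE 0.539, adjusted p = 0.00905): it was lower in TKO at D0 (-3.44) and stood at 1.54 and 1.39 CPM in DKO and 1.53 and 2.34 CPM in TKO at D6. The transcript 1700029P11Rik changed by 2.77 (SE 0.450, adjusted p = 0.0246), from 14.2 and 12.8 CPM in DKO and 3.09 and 2.73 CPM in TKO at D0 to 1.08 and 1.27 CPM in DKO and 1.83 and 1.65 CPM in TKO at D6. H2-K1 changed by -1.82 (SE 0.268, adjusted p = 0.00905): higher in TKO at D0 (1.44), it stood at 112 and 129 CPM in DKO and 77.1 and 108 CPM in TKO at D6. Lmo7 changed by 1.40 (SE 0.203, adjusted p = 0.00905), with a difference of -0.84 at D0 and of 0.56 at D6. Cep170b changed by -1.21 (SE 0.209, adjusted p = 0.0448), from 1.08 at D0 to -0.13 at D6. DESeq2 called 101 genes in the same test.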

How the results depend on the processing

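The D0 counts varied with the test, the libraries and the fold minimum. DESeq2 called 104 higher and 156 lower, the 4 libraries alone 0 and 0, voom with a spread for each genotype 1 and 1, and no fold minimum 109 and 155. Leaving out 1 library gave 2 to 451 higher and 22 to 430 lower, the lowest without a DKO clone and the highest without a TKO clone. The 4-library fit called 0 germline genes and voom 1, with 3 to 16 when 1 library was left out. The 2-cell-like count was 7 in DESeq2, 0 in the 4-library fit, 0 in voom and 4 to 14 when 1 library was left out. Lower calls were 78.6% of all calls with library totals, 80.8% with upper quartile scaling, 60.0% in DESeq2 and 74.2% as reported. Library totals, upper quartile scaling, no filter, the sum of lines and the chromosome offsets kept both counts within 1.5 times. Each fit with 1 library left out, at D0 or D6, keeps 1 clone of TKO or of DKO. Its counts therefore rest on the spread of the other genotypes and are a description only.

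At D6, DESeq2 called 3 higher and 1 lower, and leaving out 1 library gave 0 to 85 higher and 0 to 54 lower. The change between days was called for 101 genes in DESeq2 and for 24 with the clone as a replicate block. Genes over 2-fold between clones numbered 359 in TKO and 5 in DKO with a pseudocount of 5, and 73 in DKO with 0.1.

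A replicate block at D0 gave 49 higher and 107 lower calls, within 1.5 times of the reported counts. The numbers are only names here: with 2 pairs, the deviations of same-numbered clones correlated at 0.157.

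Of the genes not called, Tet1 turned to -0.028 with upper quartile scaling, -0.31 with the replicate block and -0.92 with voom, and ranged from -2.85 to 0.92 when 1 library was left out. Tet2 ranged from -2.25, without TKO_1, to 0.18. The cause of these changes was not tested. With 2 clones a genotype and counts of 0 to 10 in TKO for many of the lowest genes, depth limits how well the size of their falls is known.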
